A study of Mus musculus with 5 samples.

Results

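The genes of fatty acid and triglyceride synthesis were set side by side in embryonic fibroblasts of mice labelled MDR2-/- and MDR2+/+. The gene now called Abcb4 was formerly named Mdr2, and it encodes a transporter that moves phosphatidylcholine across the canalicular membrane of hepatocytes. The 40 genes were chosen by name for their roles in the pathway, and all 40 were found among the 21630 genes measured. The brightest probe set by the mean of the 5 arrays stood for each gene. The fibroblasts came from littermate embryos, were passaged on a 3T3 schedule (a fixed routine of serial replating) and were collected at passage 40. The data comprised 3 arrays of the MDR2-/- cells (knockout replicates 1, 2 and 3) and 2 arrays of the MDR2+/+ cells (wild-type replicates 2 and 3), with no other treatment named. The sources used here name no strain, no sex or number of embryos and no disrupted exon. The labels also do not say whether replicates were separate cultures, so a p-value reflects only how far these arrays differ among themselves, possibly for technical reasons.

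Cytosolic acetyl-CoA is carboxylated to malonyl-CoA, from which fatty acid synthase builds palmitate. Elongases and desaturases then lengthen palmitate and introduce double bonds, acyl-CoA synthetases activate fatty acids, and acyltransferases and lipins assemble them on glycerol into triglyceride, which lipases break down again. In many tissues the transcription factors SREBP1, encoded by Srebf1, and ChREBP, encoded by Mlxipl, activate these genes. Cultured fibroblasts make fatty acids mainly for membranes and store little triglyceride.

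Values are log2 signals as the authors deposited them, fold changes are differences of log2 means (knockout minus wild type), and all tests are those of limma with Benjamini-Hochberg adjustment over all 21630 genes, at a threshold of 0.05. Abcb4 itself was at 6.0, 4.63 and 5.74 on the knockout arrays and at 4.05 and 3.95 in wild type (log2 fold change 1.46 ± 0.50, SE; adjusted p = 0.358), so its direction went against the label. It lay above the background level given below on 1 array, knockout replicate 1, and whether the probe set lies in the disrupted part is not known here. Directions below are those of the arrays labelled knockout. Sex-linked transcripts differed between the groups as well, with a log2 fold change of 4.41 for Xist and -4.40 for Ddx3y (adjusted p = 0.0250 and 0.0267). Genotype label and sex-linked expression cannot be told apart. The number of arrays limits the precision. Background was read from 45 antigenomic probe sets (designed to have no target in the genome), whose 95th percentile was 5.71 to 6.08 across arrays. On every array, 14 members lay above it and 13 at or below it, and in the latter a difference may be understated.

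None of the 40 genes passed the adjusted threshold, which 0.301% of all genes passed. At an unadjusted p under 0.05 there were 11 members (27.5%), 8 higher and 3 lower, beside 13.6% of all genes (5.36% higher and 8.29% lower). Those higher on the knockout arrays were the stearoyl-CoA desaturases Scd1 and Scd2, the desaturase Fads1, the elongases Elovl1, Elovl4, Elovl5 and Elovl6, and Dgat2, which encodes an enzyme of the last step of triglyceride synthesis. Those lower were the lipases Mgll and Pnpla2 and the elongase Elovl7. On every array 13 of the 40 members, but 13909 of the 21630 genes, lay at or below the background level. Percentages of all genes here and below are therefore not matched for signal level. With dim genes left out, 10 of 36 members and 22.8% of 12978 genes had an unadjusted p under 0.05. The groups did not overlap for 19 members, 10 higher and 9 lower in knockout, and 25.0% of all genes did not overlap (10.6% higher and 14.4% lower). With dim genes left out, these were again 10 higher and 9 lower members, beside 37.7% of the genes kept. A log2 fold change of at least 1 in size was seen for 7 members (17.5%) and for 4.09% of all genes. The median over the 40 members was 0.045 and that over all genes 0, with 25 members above 0 and 15 below (62.5% above, against 48.5% of all genes above 0 and 44.2% below). After subtraction of array medians, 21 of the 40 and 38.2% of all genes lay above 0. The groups then did not overlap for 49.7% of all genes, and for 10 members higher and 11 lower in knockout. A tie between groups counts as overlap, and as deposited only 7670 of the 21630 genes had 5 distinct values. RNA was taken from whole cultures, in which fewer expressing cells and less RNA per cell cannot be told apart.

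**Figure D1:**
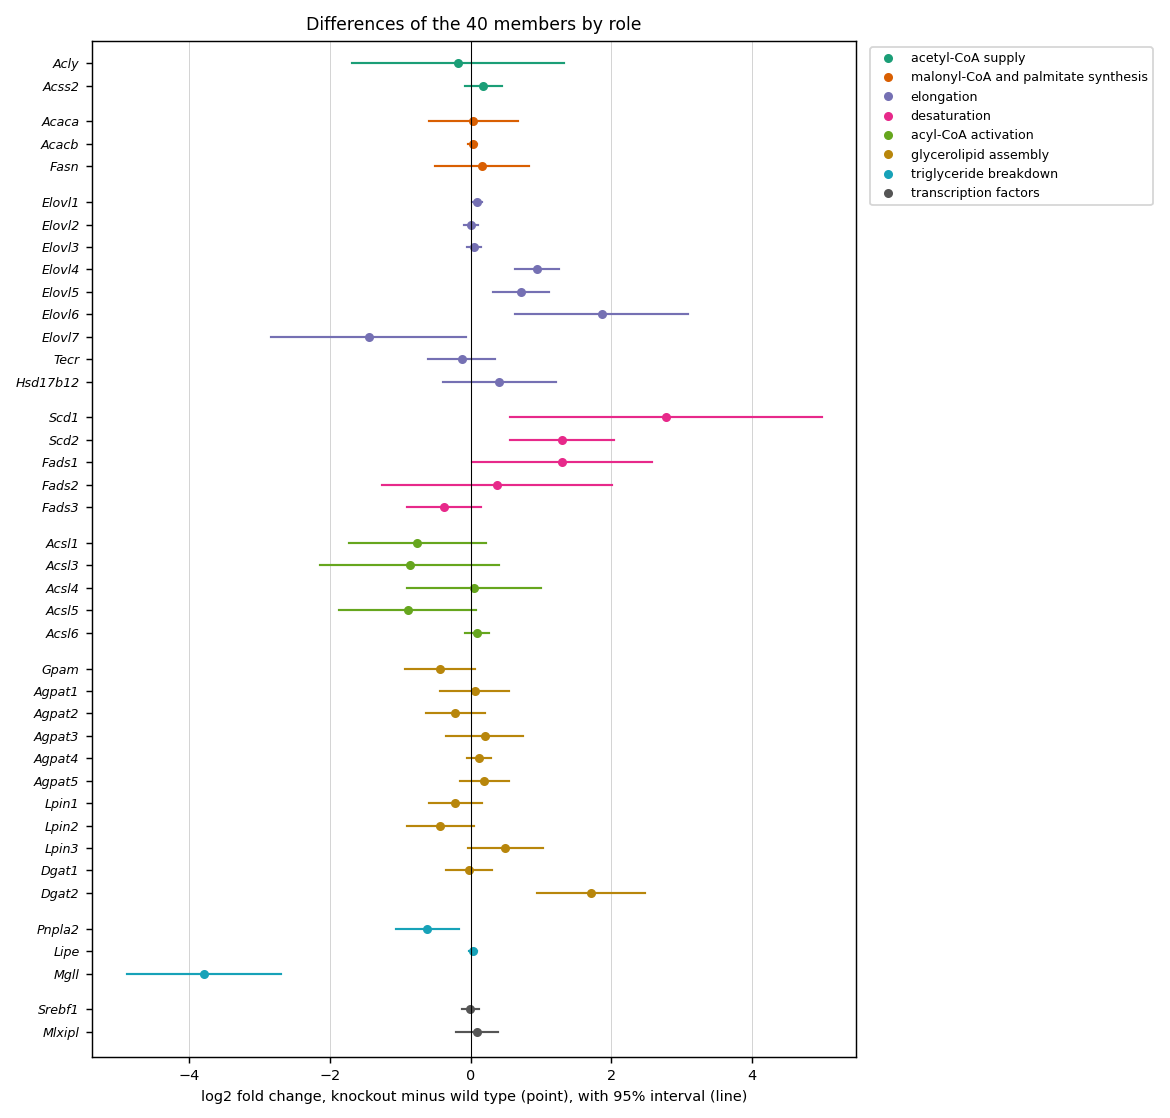
Log2 fold change (knockout minus wild type, horizontal axis) of the 40 members, grouped by role, as points with 95% intervals from limma as lines. The intervals of 11 members leave out 0, with Scd1 at 2.78 and Mgll at -3.80 as the extremes.

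The enzymes that start the pathway showed no difference beyond the spread of the arrays. Acly, which makes cytosolic acetyl-CoA from citrate, was at 6.29, 7.29 and 5.81 on knockout replicates 1, 2 and 3 and at 6.48 and 6.81 in wild type. Fasn, the fatty acid synthase, was at 6.64, 7.27 and 6.74 against 6.71 and 6.74. In both genes knockout replicate 2 was the highest array and the groups overlapped. Their log2 fold changes were -0.18 (95% interval -1.69 to 1.33; adjusted p = 0.893) and 0.16 (-0.50 to 0.82; adjusted p = 0.724). Acaca, the acetyl-CoA carboxylase of the cytosol, was at 6.74, 7.02 and 6.39 against 6.63 and 6.74, again overlapping (0.03, interval -0.60 to 0.67; adjusted p = 1.00). The array annotation places this Acaca probe set on chromosome 12, whereas the RefSeq table has Acaca on chromosome 11, the only such mismatch among the 40. A dimmer Acaca probe set on chromosome 11 had a difference of -0.29. Acss2, which makes acetyl-CoA from acetate, and Acacb, the carboxylase at the mitochondrial surface, had log2 fold changes of 0.18 and 0.03 and lay below the antigenomic 95th percentile on every array.

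Of the 9 elongation genes, 5 were higher on every knockout array than on either wild-type array, which 10.6% of all genes were. They were Elovl6, Elovl5, Elovl4, Elovl1 and Hsd17b12. Elovl6, which extends palmitate towards stearate, was at 7.31, 7.84 and 7.36 against 5.09 and 6.19 (1.86 ± 0.42, SE; adjusted p = 0.219). The wild-type arrays lay about as far from each other as the higher of them lay from the knockout arrays. The log2 fold change was 1.31 with wild-type replicate 2 left out and 2.41 with replicate 3 left out. On wild-type replicate 2 Elovl6 lay below the antigenomic 95th percentile, so the fold may be understated. Elovl5, an elongase of polyunsaturated fatty acids, was at 9.31, 9.36 and 8.98 against 8.52 and 8.49 (0.71 ± 0.14, SE; adjusted p = 0.186). Elovl4, which makes very long chains, was at 4.25, 4.47 and 4.25 against 3.29 and 3.47 (0.94 ± 0.11, SE; adjusted p = 0.103). All of these Elovl4 values lay below the antigenomic 95th percentile. The Elovl4 call passed on quantile normalization and after dim or equal-valued genes were left out (adjusted p = 0.0412, 0.0493 and 0.0417).

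Elovl7 went the other way, at 4.57, 3.86 and 4.78 against 5.33 and 6.37 (-1.45 ± 0.48, SE; adjusted p = 0.344). Elovl7 lay above the antigenomic 95th percentile on 1 array only, wild-type replicate 3. Elovl1, an elongase of saturated very long chains, was nearly level at 8.50, 8.51 and 8.52 against 8.39 and 8.46 (0.09 ± 0.02, SE; adjusted p = 0.274). Elovl2 and Elovl3 stayed between 2.24 and 2.54 on all arrays. The other enzymes of the elongation cycle were Hsd17b12, the ketoacyl-CoA reductase, at 7.57, 8.18 and 7.40 against 7.28 and 7.34 (0.41, adjusted p = 0.554), and Tecr, the enoyl-CoA reductase, between 10.27 and 10.69 with overlapping groups (-0.13, adjusted p = 0.693). The 9 genes of this step therefore included differences in both directions, from -1.45 to 1.86.

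Proximal promoters are shown for Elovl5 and Elovl6, which lay higher together, and for Fasn, which overlapped. Sequences are the 250 bases before the annotated start, from RefSeq on build GRCm38.p6, read 5′ to 3′ on the gene's strand. Capitals mark matches on either strand to any of 4 motifs. The E-box was searched as CACGTG and the GC box as GGGCGG. The CCAAT box was searched by those 5 letters, and the sterol regulatory element as TCACNCCAC.
Elovl5: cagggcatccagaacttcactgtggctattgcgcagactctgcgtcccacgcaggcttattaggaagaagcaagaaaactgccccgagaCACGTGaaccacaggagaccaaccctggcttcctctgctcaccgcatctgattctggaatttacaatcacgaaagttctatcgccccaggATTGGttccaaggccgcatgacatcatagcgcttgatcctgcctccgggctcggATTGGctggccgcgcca
Elovl6: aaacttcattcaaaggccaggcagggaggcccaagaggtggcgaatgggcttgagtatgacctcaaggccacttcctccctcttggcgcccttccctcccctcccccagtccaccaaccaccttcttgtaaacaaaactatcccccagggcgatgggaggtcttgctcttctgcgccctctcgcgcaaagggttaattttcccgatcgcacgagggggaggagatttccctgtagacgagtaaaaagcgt
Fasn: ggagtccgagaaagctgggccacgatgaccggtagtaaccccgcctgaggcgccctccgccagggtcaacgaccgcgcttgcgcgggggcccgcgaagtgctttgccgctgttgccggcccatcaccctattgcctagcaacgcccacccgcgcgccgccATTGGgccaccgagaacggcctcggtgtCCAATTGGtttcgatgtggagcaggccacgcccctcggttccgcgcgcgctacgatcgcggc
The windows are chr9:77917115-77917364 (plus strand) for Elovl5, chr3:129532136-129532385 (plus strand) for Elovl6 and chr11:120824548-120824797 (minus strand) for Fasn. Elovl5 held 1 E-box and 2 CCAAT boxes, Fasn 3 CCAAT boxes of which 2 overlap on opposite strands, and Elovl6 none of the 4 motifs. Promoters were matched for 33 of the 40 genes, with 48 windows. No window was available for Scd1, Scd2, Fads1, Dgat1, Dgat2, Elovl3 and Agpat5, so these genes were not scanned. The E-box was found in 5 of these 48 windows and in 6.02% of 32851 promoters, the CCAAT box in 20 and 33.8%, the GC box in 30 and 32.7%, and the sterol regulatory element in 2 and 1.05%, namely 1 window each of Acsl1 and Mlxipl. A match is a description of the letters and not a site of binding.

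Of the 5 desaturases, 3 were higher on every knockout array, which 10.6% of all genes were. Scd1 had the largest positive log2 fold change of the 40 genes. Scd1, which introduces the double bond of oleate and palmitoleate, was at 9.11, 9.90 and 8.69 against 5.52 and 7.41. Every knockout array was above both wild-type arrays, and the wild-type arrays themselves lay far apart. The log2 fold change was 2.78 ± 0.76 (SE; 6.85-fold; adjusted p = 0.275). Wild-type replicate 2 lay below the antigenomic 95th percentile for Scd1, so the fold may be understated. The log2 fold change was 1.83 with wild-type replicate 2 left out or 3.72 with replicate 3 left out. Scd2, its paralogue with wide expression outside the liver, was at 9.91, 10.59 and 10.04 against 8.78 and 8.99, with closer replicates (1.30 ± 0.26, SE; adjusted p = 0.189). Scd1 and Scd2 lie within one cluster on chromosome 19 (44468945 to 44482157 and 44368578 to 44381354, NCBIM37). Their neighbours Scd3 and Scd4 stayed between 2.43 and 3.24 on all arrays.

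The Fads genes, which desaturate polyunsaturated fatty acids, lie side by side on chromosome 19 and did not share a direction. Fads1 was at 8.37, 9.16 and 7.95 against 6.98 and 7.42 (1.29 ± 0.44, SE; adjusted p = 0.362), with no overlap. Fads2 was at 7.84, 9.01 and 7.44 against 7.55 and 7.90, where knockout replicate 2 stood above the other 4 arrays (0.37 ± 0.57, SE; adjusted p = 0.740). Its log2 fold change was -0.08 without that array. Fads3 was at 7.80, 7.81 and 7.36 against 8.10 and 7.97 (-0.38 ± 0.18, SE; adjusted p = 0.525), with every knockout array below wild type.

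**Figure D2:**
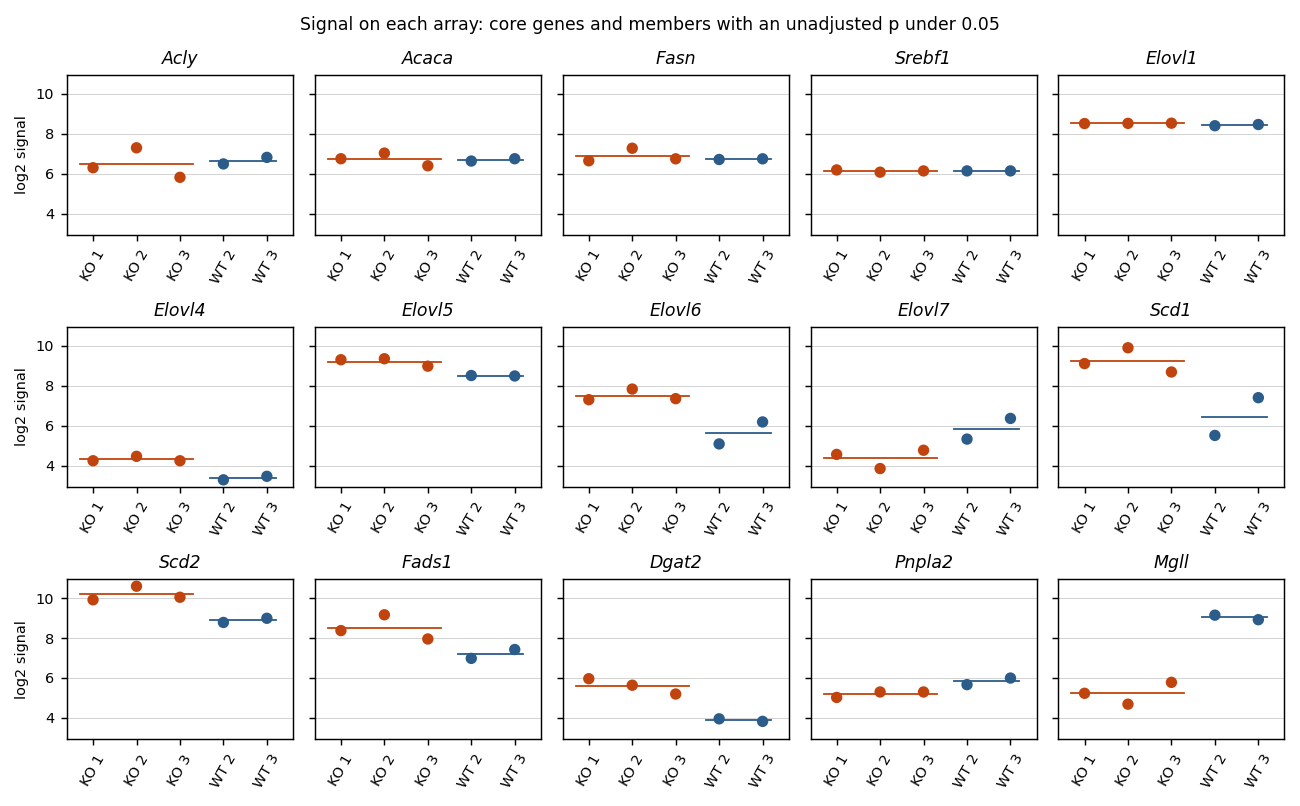
Log2 signal (vertical axis) on each of the 5 arrays (horizontal axis; KO, knockout; WT, wild type) for the core genes Acly, Acaca, Fasn and Srebf1 and for the 11 members with an unadjusted p under 0.05; points are arrays and lines group means. Scd1 and Elovl6 separate the groups but differ between wild-type replicates, while Mgll lies near 9 in wild type and below 6 in knockout.

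The acyl-CoA synthetases, which activate fatty acids for use, were lower or overlapping between groups. Of the 5, 0 had an unadjusted p under 0.05, beside 13.6% of all genes. Acsl5 was at 5.32, 6.31 and 5.94 against 6.75 and 6.76 (-0.90 ± 0.34, SE; adjusted p = 0.409). Acsl3, found on lipid droplets, was at 5.22, 5.52 and 4.69 against 5.52 and 6.50 (-0.87 ± 0.44, SE; adjusted p = 0.548), and Acsl1 at 6.17, 6.0 and 5.78 against 6.29 and 7.20 (-0.76 ± 0.33, SE; adjusted p = 0.498). In these 3 genes all knockout arrays were below both wild-type arrays, which held for 14.4% of all genes. For Acsl3 the closest pair differed by less than the rounding of the values. Acsl3 lay above the antigenomic 95th percentile on 1 array only, wild-type replicate 3. Acsl4, which prefers arachidonate, overlapped (0.04, interval -0.90 to 0.99), and Acsl6 stayed between 2.76 and 2.98.

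Beside 13.6% of all genes, 1 of the 11 genes of glycerolipid assembly had an unadjusted p under 0.05, namely Dgat2. It was at 5.96, 5.64 and 5.20 on the knockout arrays against 3.96 and 3.83 (1.71 ± 0.26, SE; adjusted p = 0.145). All of its values were below the antigenomic 95th percentile of their array, so the probe set was not clearly above background. Dgat1, an unrelated enzyme of the same reaction, was level at 5.92, 6.25 and 6.10 against 6.12 and 6.12 (-0.03, interval -0.36 to 0.30; adjusted p = 0.956). Gpam, the mitochondrial acyltransferase of the first step, was at 4.93, 4.93 and 5.06 against 5.65 and 5.17 (-0.44, adjusted p = 0.433). The acyltransferases of the second step, Agpat1 to Agpat5, had log2 fold changes from -0.22 (Agpat2) to 0.19 (Agpat3), all with overlapping groups. Among the lipins, the phosphatidate phosphatases, Lpin3 was higher on every knockout array (0.49, adjusted p = 0.412), Lpin2 lower on every knockout array (-0.43, adjusted p = 0.419) and Lpin1 overlapping (-0.22, adjusted p = 0.554). Gpam, Lpin1 and Lpin3 lay below the antigenomic 95th percentile on all arrays.

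The largest difference of the 40 genes was a lower signal of Mgll, which encodes the lipase that splits monoglycerides, including the endocannabinoid 2-arachidonoylglycerol. Mgll was at 5.23, 4.69 and 5.78 on the knockout arrays and at 9.14 and 8.92 in wild type. The groups were far apart relative to the spread within either, with means of 5.23 ± 0.55 (SD, n = 3) and 9.03 ± 0.16 (SD, n = 2). The log2 fold change was -3.80 ± 0.38 (SE; interval -4.89 to -2.70), a 13.9-fold lower signal in knockout, with an adjusted p of 0.0827. Mgll passed without equal-valued genes (adjusted p = 0.0265), with array medians subtracted (0.0310), with quantile normalization (0.0332) and without dim genes (0.0361), and missed the threshold under the other alternatives run, at adjusted p-values up to 0.425. On the knockout arrays Mgll lay below the antigenomic 95th percentile, so the fold change may be understated. Its position on the array annotation is chromosome 6, plus strand, from 88674478 to 88778351 (NCBIM37).

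RefSeq lists 2 nearby starts for Mgll. The 250 bases before the first are shown because this gene had the largest difference, and they lie at chr6:88724162-88724411 (GRCm38.p6, plus strand), with the capitals as above.
Mgll: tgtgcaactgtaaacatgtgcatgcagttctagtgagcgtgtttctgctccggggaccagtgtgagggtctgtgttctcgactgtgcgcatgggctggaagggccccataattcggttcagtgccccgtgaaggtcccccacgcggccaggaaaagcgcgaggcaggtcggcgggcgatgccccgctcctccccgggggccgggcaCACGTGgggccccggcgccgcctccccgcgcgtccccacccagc
This window held 1 E-box, and the window before the second start held 1 GC box.

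The lipases that act before Mgll differed less. Pnpla2, which encodes the lipase ATGL that removes the first fatty acid from triglyceride, was at 5.03, 5.30 and 5.30 against 5.67 and 6.0 (-0.62 ± 0.15, SE; 1.54-fold lower in knockout; adjusted p = 0.244), without overlap. Pnpla2 lay above the antigenomic 95th percentile on 1 array only, wild-type replicate 3. Lipe, the hormone-sensitive lipase, was at 4.55 to 4.62 on all arrays, and its brighter probe set is annotated on the strand opposite to the gene. Its dimmer probe set, on the gene's strand, gave a difference of -0.035.

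Neither transcription factor gene of the pathway showed a difference, within the limits given here. Srebf1 was at 6.18, 6.07 and 6.13 in knockout and at 6.13 on both wild-type arrays, a log2 fold change of -0.01 with a 95% interval of -0.12 to 0.11 (adjusted p = 1.00). Srebf1 had only 3 distinct values on the 5 arrays, so its narrow interval rests in part on tied values. Mlxipl stayed between 3.56 and 3.82, with 2 distinct values, below the antigenomic 95th percentile on every array. These are transcript levels, and the activity of SREBP1 also depends on cleavage of its precursor protein, which arrays do not measure.

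Knockout replicate 2 had the highest signal of the 5 arrays for 14 of the 40 genes (35%), beside 15.8% of all genes. They were Acly, Acss2, Acaca, Fasn, Elovl4, Elovl5, Elovl6, Tecr, Hsd17b12, Scd1, Scd2, Fads1, Fads2 and Dgat1. The gap to the next array was largest for Fads2 (1.11), Fads1 (0.79), Scd1 (0.79) and Hsd17b12 (0.61). All of these genes except Dgat1 belong to acetyl-CoA supply or to the synthesis, elongation or desaturation of fatty acids. The median difference from the wild-type mean over the 5 desaturases was 1.03, 1.71 and 0.75 on knockout replicates 1, 2 and 3. Wild-type replicate 2 was the lowest array for 13 of the 40 genes (32.5%), beside 18.6% of all genes, and Scd1 and Elovl6 were among them. Insig1 and Srebf2 were chosen here after their values were seen, and they had the same highest array (Insig1 at 7.66, 9.05 and 7.19 against 6.25 and 6.86; Srebf2 at 7.35, 8.23 and 7.12 against 6.56 and 7.43). Not all genes that control lipogenic transcription did so, and Insig2 was lowest on that array. The cause was not tested. Without knockout replicate 2, the log2 fold changes were 2.44 for Scd1, 1.69 for Elovl6 and -0.03 for Fasn.

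**Figure D3:**
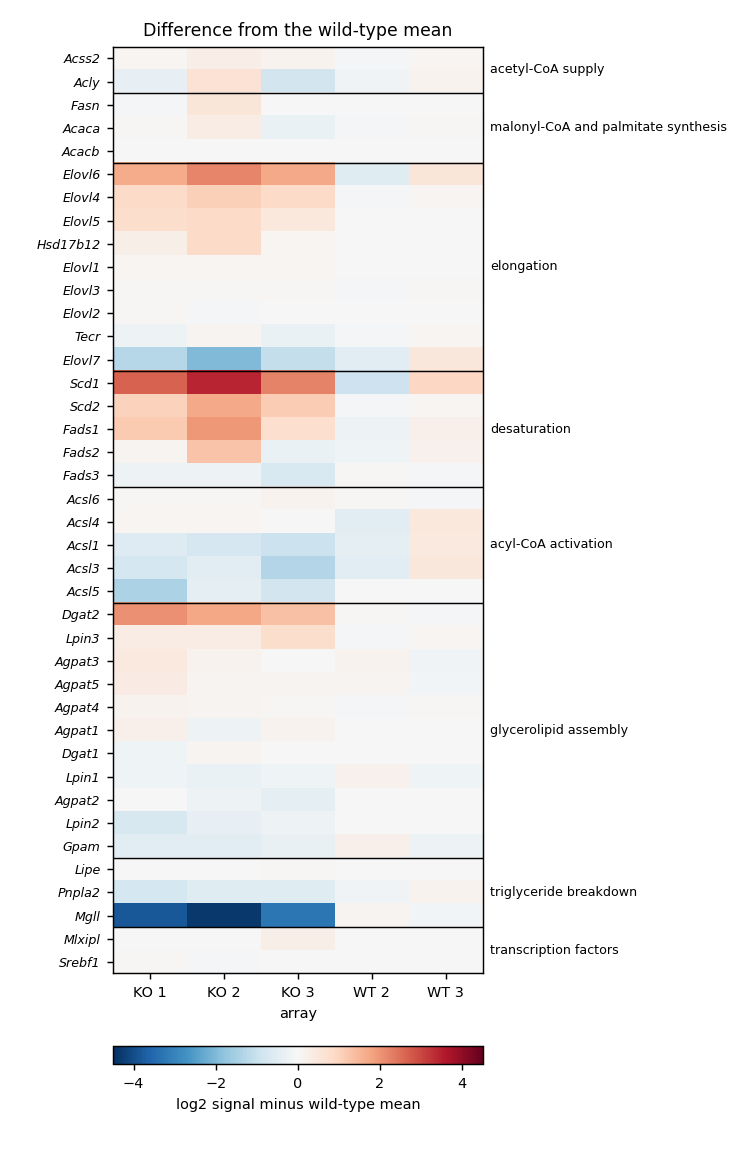
Difference of each array from the wild-type mean (colour, log2 scale from -4.5 to 4.5) for the 40 members, in rows by role, on knockout (KO) and wild-type (WT) replicates. Elovl4, Elovl5, Elovl6, Scd1, Scd2, Fads1 and Dgat2 are red on all 3 knockout arrays, Acsl1, Acsl3 and Acsl5 are pale blue there, and Mgll is the deepest blue.

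Other genes of the pathway were taken from 5 lists of known partners, of which 76 of 77 genes were measured. The gene that passed the test was Slc27a3, a member of the family of fatty acid transport proteins, which rose from 4.40 and 4.30 in wild type to 6.96, 6.81 and 7.10 in knockout (2.61 ± 0.11, SE; adjusted p = 0.0267). Both wild-type values lay below the antigenomic 95th percentile, so the difference may be understated. The remaining 75 did not pass, and of these 4 had an unadjusted p under 0.05 with a lower signal in knockout and 8 with a higher one. With Slc27a3 counted, 13 of the 76 had such a p, beside 13.6% of all genes (8.29% lower and 5.36% higher). The call on Slc27a3 ended when any 1 array was left out, with adjusted p-values from 0.0576 to 0.152 and log2 fold changes from 2.53 to 2.68, and with the replicate number as a block (adjusted p = 0.356). Among the 12 genes of uptake and binding, 6 were higher on every knockout array, which 10.6% of all genes were. They included the binding proteins Fabp4, at 6.90, 5.49 and 5.56 against 3.83 and 4.18 (adjusted p = 0.279), and Fabp5 (0.45, adjusted p = 0.266). Fabp4 lay above the antigenomic 95th percentile on 1 array only, knockout replicate 1. Slc27a1, Slc27a4 and Fabp3, also among the 6, lay below it on all arrays. Lpl, the lipoprotein lipase, was lower at 4.22, 3.77 and 3.53 against 4.92 and 5.19 (-1.22 ± 0.26, SE; adjusted p = 0.205). It lay below the antigenomic 95th percentile on all arrays.

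Of 24 genes that control lipogenic transcription 0 passed. Pparg, the regulator of fat cell formation, was at 6.64, 6.11 and 6.0 against 4.30 and 4.24 (1.98 ± 0.23, SE; adjusted p = 0.106). On knockout replicate 3 and both wild-type arrays Pparg lay below the antigenomic 95th percentile. Pparg passed on quantile normalization, without dim genes and without equal-valued genes (adjusted p = 0.0381, 0.0493 and 0.0397). Mbtps2, a protease that cleaves SREBP precursors, had a log2 fold change of -0.19 (adjusted p = 0.225). Of 5 genes of citrate export and NADPH supply 0 passed, with the citrate carrier Slc25a1 at 8.77, 8.55 and 8.22 against 7.62 and 7.58 (0.91 ± 0.19, SE; adjusted p = 0.205) and Pgd, of the pentose phosphate pathway, at a log2 fold change of 0.37 (adjusted p = 0.355).

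Of 13 lipid droplet genes 0 passed. Plin4, a coat protein of droplets, was at 5.06, 4.97 and 4.78 against 4.01 and 4.04 (0.91 ± 0.10, SE; adjusted p = 0.0956), below the antigenomic 95th percentile. It passed on quantile normalization, without dim genes and without equal-valued genes (adjusted p = 0.0419, 0.0467 and 0.0397). Bscl2, which encodes seipin, was at 6.71, 6.23 and 6.35 against 5.37 and 4.48 (1.51 ± 0.35, SE; adjusted p = 0.222). Both wild-type values of Bscl2 lay below the antigenomic 95th percentile. The main droplet coat gene of non-adipose cells, Plin2, was level (0.11, adjusted p = 0.560). Of 22 further synthesis and hydrolysis enzymes 0 passed, with log2 fold changes of 1.84 for the monoacylglycerol acyltransferase Mogat2 (adjusted p = 0.279), -0.15 for the dehydratase Hacd1 (adjusted p = 0.106) and -0.21 for the acyltransferase Gpat4 (adjusted p = 0.240). Mogat2 lay above the antigenomic 95th percentile on 1 array only, knockout replicate 1.

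**Figure D4:**
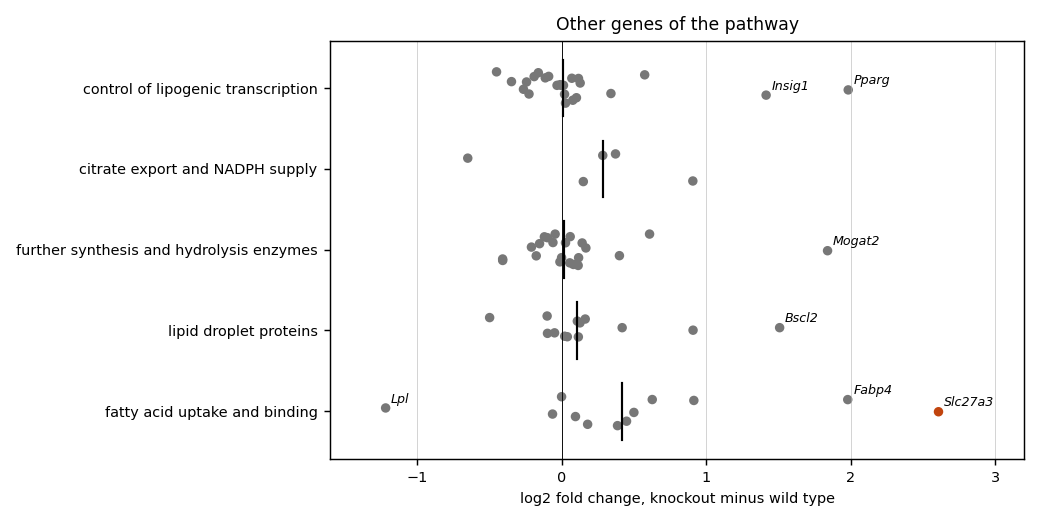
Log2 fold change (knockout minus wild type, horizontal axis) of the measured partner genes in 5 lists; each point is a gene, the vertical bar is the list's median, genes with a log2 fold change of at least 1 in size are named, and orange marks an adjusted p under 0.05. Slc27a3 at 2.61 is the one orange point.

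Marker genes were read beside these results. Of 8 fibroblast markers 7 were above the antigenomic 95th percentile on every array, and the exception, Thy1, was at 10.55, 9.70 and 10.16 in knockout against 5.60 and 5.22 in wild type (adjusted p = 0.0523). Of these 8 genes 5 were lower on every knockout array, which 14.4% of all genes were, among them Col3a1 (-1.02, adjusted p = 0.139), and the summed log2 signal was 74.7 to 78.4 in knockout and 75.7 to 77.6 in wild type. Without Thy1 the sum was 65.0 to 68.1 in knockout and 70.5 to 72.0 in wild type. Of 6 adipocyte markers 0 passed and 1, Fabp4, also in the list of uptake and binding above, was higher on every knockout array. Adipoq was at 2.37 on all arrays, and Lep and Cidec stayed between 2.18 and 3.13. The summed log2 signal of the 6, Fabp4 included, was 21.5 to 23.3 in knockout and 20.2 to 20.3 in wild type. The other 5 overlapped between groups and lay below the antigenomic 95th percentile on all arrays. Of 4 epithelial markers, Cdh1 was at 4.99, 5.34 and 5.62 against 3.88 and 4.38 (adjusted p = 0.224), with all 4 below the antigenomic 95th percentile and summed signals of 16.2 to 17.3 against 14.8 to 15.5. Hepatocyte, macrophage and endothelial lists overlapped between groups in all of their genes. The part of other cell types in the results was not tested.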

How the data were processed

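Per the labels' protocols, total RNA was column-purified, amplified with a whole-transcriptome kit and biotin-labelled. Per the submitters' processing notes, signals came from Affymetrix Expression Console, for which the sources used here give neither a version nor a way of summarising or normalizing. The authors deposited log2 values per probe set and array, used as given; the second deposited table held the same values (0 of 35556 probe sets differed).

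Control probe sets (7115) were left out, and of 25004 probe sets with 1 symbol, 22271 were named by accession and 1969 by symbol through a RefSeq gene table (GRCm38.p6), and 764 kept the array's symbol. The brightest probe set stood for each of 21630 genes. Array coordinates are taken as NCBIM37, since of 2980 rows whose annotation names a place in NCBIM37, 2759 overlap the coordinates listed for them. The contrast was fitted by lmFit and eBayes of limma 3.58.1 (R 4.3.3; 3 residual degrees of freedom), checked on simulated data. Of all genes 1589 had equal values on all arrays, and of the 40 members 19 had tied values on some. No member probe set was marked as cross-hybridising (0).

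All 40 members are named. Full values are given for those with an unadjusted p under 0.05 or a log2 fold change of at least 1 in size, and for Srebf1, Fasn, Acaca and Acly. In each partner list, up to 4 genes with the lowest unadjusted p under 0.05 and a mean above the median of all genes are named. Other named genes and values were chosen after their values were seen. Members, lists and alternatives were chosen with earlier results of these data known. The alternatives were other scalings, filters, probe set rules, prior variances, array weights, a replicate block and leaving out each array.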

Additional observations from a re-analysis of the deposited data

How the results depend on the processing

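The 14 alternatives left the direction of all 11 members with an unadjusted p under 0.05 as reported. The number of members past the threshold, 0 as reported, became 2 on quantile normalization (Elovl4 and Mgll), 1 on subtraction of array medians (Mgll), and 2 each without dim genes and without equal-valued genes (Elovl4 and Mgll). It was 0 when each array was left out (0 to 0). Over all genes the count of 65 became 363, 250, 270 and 359 under those settings, 107 with array weights, and 0 to 335 when single arrays were left out. Without knockout replicate 1, 2 or 3 it was 0, 2 and 0 (2297, 3292 and 2196 at an unadjusted p under 0.05), and 189 and 335 without wild-type replicate 2 or 3. The partner count of 1 became 3 on quantile normalization and without dim or equal-valued genes, and 0 to 1 when single arrays were left out; the 1 gene was then Cideb without wild-type replicate 2 and Mogat1 without wild-type replicate 3, not Slc27a3. With the replicate number as a block (1 residual degree of freedom), 0 genes passed in all, 0 members and 0 partner genes. In that fit 4 of the 40 members had an unadjusted p under 0.05, beside 10.7% of all genes (2319). Nothing in the labels says that a number marks shared material; deviations from the group means correlated at -0.17 for the replicates numbered 2 and at -0.14 for those numbered 3. Filters reduce the genes tested, and left-out arrays reduce the samples. Without wild-type replicate 2 or 3, only 1 wild-type array is left, so the spread comes from the knockout arrays alone. Cideb was at 4.55 and Mogat1 at 2.28 on every knockout array, with a knockout SD of 0. Both lay below the antigenomic 95th percentile on all arrays. Their calls therefore rest on tied values of dim genes. How far the counts over all genes in these fits rest on tied values was not tested. Leaving out equal-valued genes also changed the prior of limma. Its SD went from 0.028 to 0.084 and its degrees of freedom from 0.63 to 1.44. The cause of these shifts was not tested.

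Genes near 0 changed sign. Acaca was at -0.0024 on subtraction of array medians and -0.13 on the mean of probe sets, Acacb at -0.0051 on quantile normalization and -0.0094 on subtraction, Elovl2 at -0.023, -0.031 and -0.021 (quantile, subtraction, block), Agpat1 at -0.043 with the block, Dgat1 at 0.033 (quantile) and 0.059 (block), Lipe at -0.0019, -0.0044 and -0.0019 (quantile, subtraction, mean of probe sets) and Srebf1 at 0.050 (quantile) and 0.0038 (array weights). With single arrays left out, Acly ranged from -0.59 to 0.14, Acaca from -0.12 to 0.20, Fasn from -0.033 to 0.28, Elovl2 from -0.021 to 0.028, Fads2 from -0.083 to 0.70, Acsl4 from -0.43 to 0.52, Agpat1 from -0.043 to 0.19, Dgat1 from -0.11 to 0.059 and Srebf1 from -0.032 to 0.024. Signals near the antigenomic probe sets limit what Elovl4, Elovl7, Acsl3, Dgat2, Gpam, Lpin3, Pnpla2, Lpl, Fabp4, Mogat2 and Plin4, among others, can show.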
